A study of Mus musculus with 14 samples.

Results

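Granulocyte-monocyte progenitors (GMP) of mice labelled IRF8KO were compared with GMP of wild-type mice. The comparison took every array of those 2 groups, 4 of the 14 samples and 2 of the 7 groups of the series, and describes genes of metabolism, signalling, adhesion, trafficking and transport. Both groups were bone marrow cells of C57BL/6 mice, enriched with magnetic beads and then purified by flow cytometry, and both passed the same gate, which kept cells with CD117 and CD16/32 and removed those with lineage markers, Sca-1, IL-7R or CD115. The groups differ in genotype alone by their labels, wild-type or IRF8KO. The sources used here do not give the allele, the age of the mice or the number of animals behind an array. Nothing in the labels separates the 2 arrays of a group by animal. The p-values set the difference between these arrays against the spread between replicate arrays, pooled over 12 arrays in 6 of the groups. That spread may be technical, so p-values speak only of these arrays. Total RNA, extracted with either of 2 kits that the labels do not assign to arrays, was amplified with a low-input kit, labelled with Cy3 and hybridised to single-colour Agilent arrays that shared 1 slide.

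GMP are bone marrow progenitors that give rise to neutrophils, monocytes and other myeloid cells. IRF8 belongs to the interferon regulatory factors, a family of DNA-binding proteins, and binds its sites mostly together with partners such as the ETS factor PU.1, and mice without it are known for an excess of neutrophils and a loss of monocytes and dendritic cells. The metabolism, receptors and transporters of a progenitor differ between these fates, since granulocytes, mast cells, platelets and red cells each store and secrete different products. In bulk RNA of sorted cells, fewer cells of a type and less RNA per cell cannot be told apart.

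Levels are given as log2 of the processed signal minus the 75th percentile of the array, so that 0 is the level that 75% of the probes of an array lie below, and a change is the mean of the arrays labelled IRF8KO minus the mean of the wild-type arrays, with its standard error from the fit. A change of 1 is 2-fold. Levels of different genes come from different probes and are not set against each other. The 75th percentile of the signal was 487 and 516 on the wild-type arrays and 478 and 448 on the arrays labelled IRF8KO, no spot was saturated, and replicate arrays correlated at 0.991 and 0.997 across the 12157 genes tested. The share of probes well above background was 43.6% and 44.8% on the wild-type arrays and 45.8% and 53.7% on the arrays labelled IRF8KO, where replicate 2 stood above the other 3 arrays. Its part in the results was not tested beyond leaving it out. Fewer genes were called whichever array was left out, and leaving out this replicate did not cost the most calls. Fewer samples enter each such fit, so the drop in calls does not single out this array.

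The Irf8 probe read 4.79 and 4.87 on the wild-type arrays and 6.22 and 6.17 on the arrays labelled IRF8KO, a change of 1.36 ± 0.07, adjusted p = 8.48e-06 in limma's moderated test with Benjamini-Hochberg adjustment. The level was thus higher, not lower, in the arrays labelled IRF8KO. The sources used here do not say where in the gene this probe lies, and a probe outside the deleted part checks nothing about a deletion. Every direction below is therefore one between arrays as they are labelled.

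Of the 12157 genes tested, each well above background on both wild-type arrays or on both labelled IRF8KO, 3214 were called at an adjusted p under 0.05, a background of 26.4%. The calls comprised 1945 higher genes (16%) and 1269 lower genes (10.4%). Changes of at least 2-fold were seen in 303 of the higher (2.49% of genes tested) and 335 of the lower genes (2.76%). Higher genes made up 60.5% of the calls, but 50.3% when the percentile was taken over the probes detected on all arrays, and the median change of all genes was 0.04 under the first scaling and -0.01 under the second. The 44 functional lists name 4250 genes, of which 4157 were on the array and 2683 passed the filter on background. Of these 2683, 602 were called higher (22.4%) and 366 lower (13.6%), 36.1% in all beside 26.4% of all genes tested. A gene that passed only through the group where it is bright differs in part by that choice. All calls below are over the 12157 genes. The shares given with each list are to be read beside the background of 16% higher and 10.4% lower. They are also to be read beside the 22.4% and 13.6% of all functional lists together, which lie above that background. Of the 3214 calls, 1539 were kept whichever of the 4 arrays was left out.

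**Figure D1:**
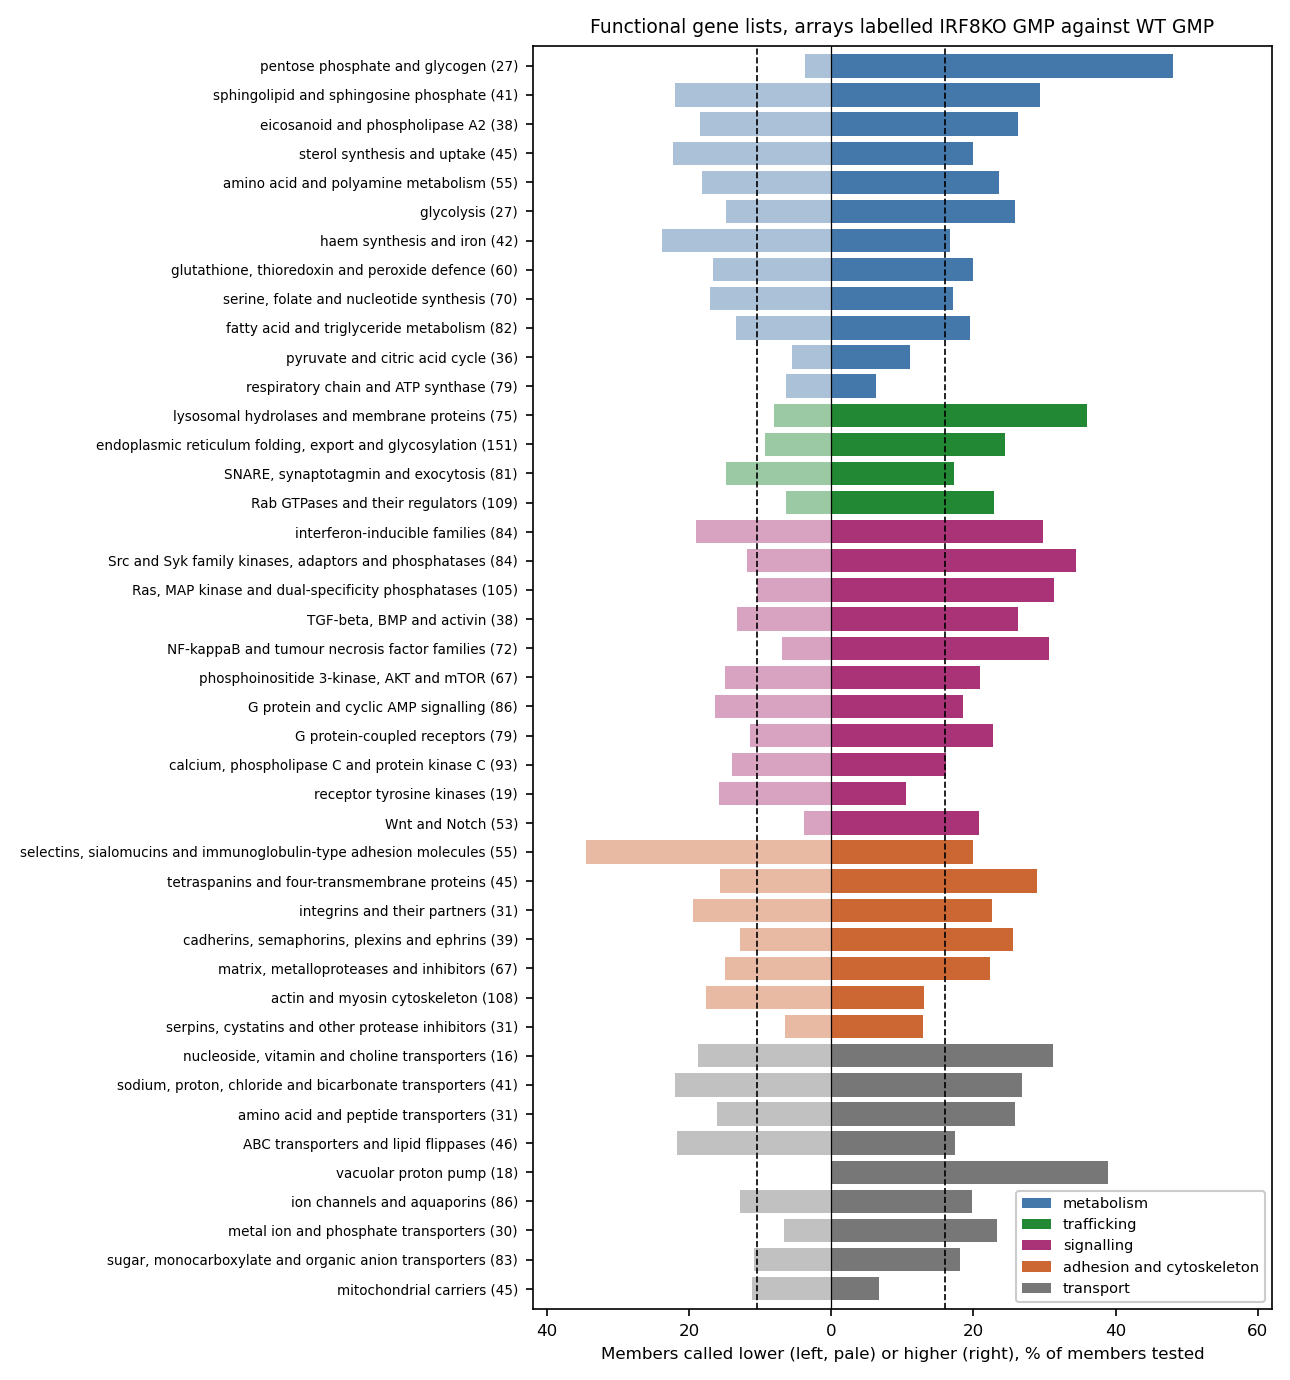
Share of the tested members of the functional lists (1 list is not shown) that were called higher (right) or lower (left, pale) in the arrays labelled IRF8KO, in percent, with the number tested in brackets and dashed lines at the background of 16% and 10.4%. Pentose phosphate and glycogen genes reached 48.1% higher, and the selectin and immunoglobulin-type adhesion genes 34.5% lower.

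Markers of other blood cells moved with these calls. Of the erythroid markers, 15 of 16 tested were called lower, and their summed linear level was 115 and 121 on the wild-type arrays and 16.8 and 17.3 on the arrays labelled IRF8KO. Megakaryocyte markers were called lower in 12 of 13 and summed to 206 and 200 on the wild-type arrays and 91.3 and 88.4 on the arrays labelled IRF8KO, with Gp6 not above background. Basophil and mast cell markers were called lower in 10 of 11 and summed to 365 and 355 on the wild-type arrays and 288 and 283 on the arrays labelled IRF8KO, with Cma1 and Mcpt4 not above background. Eosinophil markers, called lower in 7 of 8, summed to 110 and 110 on the wild-type arrays and 38.2 and 36 on the arrays labelled IRF8KO. Secondary granule and mature neutrophil markers were called higher in 12 of 15, summing to 144 and 144 on the wild-type arrays and 223 and 212 on the arrays labelled IRF8KO, with Mmp9 and Chil1 not above background. Monocyte and macrophage markers, with 10 higher and 3 lower of 16, summed to 71 and 72.7 on the wild-type arrays and 159 and 165 on the arrays labelled IRF8KO. Primary granule markers were higher in 7 of 13, B cell markers in 5 of 6 with Pax5 not above background, and dendritic cell markers in 5 of 14 with 3 lower. Stem and multipotent progenitor markers were lower in 8 of 18 and higher in 2, and T and NK cell markers lower in 2 of 8 and higher in 1. These lists are described here only because they move beside the genes below, and their part in each result was not tested.

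Promoters of the described genes were searched for letters that IRF8 and its ETS partners are known to bind, and windows are shown for 6 genes that were lower and 4 that were higher. In the 250 bases before the start of transcription, on either strand, the ETS-IRF composite, GGAA and GAAA with any 2 bases between them, was found in 2.68% of all 27025 genes with a promoter in RefSeq (build GRCm38.p6), in 12 of the 264 genes called at least 2-fold lower that have one (4.55%), and in 5 of 218 called at least 2-fold higher (2.29%). The IRF repeat, GAAA and GAAA spaced alike, was in 3.46% of all promoters, 4.92% of the lower and 4.59% of the higher genes. The reverse arrangement, GAAA and then GGAA at that spacing, stood in 2.62% of all promoters, 1.52% of the lower and 4.59% of the higher genes. Among the 9805 genes tested that have a promoter, the shares of these 3 motifs were 2.37%, 3.23% and 2.77%, in the same order. A GATA motif with a flanking A, AGATAA, was also searched. It stood in 11.4% of all promoters, 7.78% of the genes tested, 15.2% of the lower and 14.7% of the higher genes. Whether any of these shares differ was not tested. Motifs may overlap, and a match is a description of the letters, not a binding site. The windows below run 5′ to 3′ in the direction of the gene, with the match in capitals, and show a choice of the genes described later with their changes. Aldoc, Gstt1 and Clca3a1, also described later, hold 1 of the 3 IRF motifs too, and their windows are not shown.
Sphk1: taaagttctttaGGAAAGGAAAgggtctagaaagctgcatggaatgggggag
Inppl1: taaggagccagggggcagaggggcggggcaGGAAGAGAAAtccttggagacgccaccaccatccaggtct
Mmp14: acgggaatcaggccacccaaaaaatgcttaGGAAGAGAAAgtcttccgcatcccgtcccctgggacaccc
Mgst2: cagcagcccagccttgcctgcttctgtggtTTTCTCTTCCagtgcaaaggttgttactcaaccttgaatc
Plxnc1: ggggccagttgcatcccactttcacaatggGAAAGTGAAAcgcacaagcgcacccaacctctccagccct
Rab19: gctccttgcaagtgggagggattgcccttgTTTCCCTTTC
Wfdc17: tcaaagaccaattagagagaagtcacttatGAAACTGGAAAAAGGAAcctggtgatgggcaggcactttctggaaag
Ifit1: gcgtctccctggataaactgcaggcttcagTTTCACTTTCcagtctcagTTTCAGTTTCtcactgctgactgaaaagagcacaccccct
Tcirg1: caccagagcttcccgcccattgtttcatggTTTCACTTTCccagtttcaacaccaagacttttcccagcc
Cd33: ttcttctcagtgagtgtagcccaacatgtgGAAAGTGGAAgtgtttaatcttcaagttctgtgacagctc
The Sphk1 window lies at chr11:116530850-116530901 on the plus strand, that of Inppl1 at chr7:101838313-101838382 on the minus strand, that of Mmp14 at chr14:54431360-54431429 on the plus strand, and that of Mgst2 at chr3:51661029-51661098 on the plus strand. These 4 hold the ETS-IRF composite, in Mgst2 on the opposite strand. Plxnc1 (chr10:94944924-94944993 on the minus strand) and Rab19 (chr6:39381313-39381352 on the plus strand) hold the IRF repeat, in Rab19 on the opposite strand and ending at the base before the start. Ifit1 (chr19:34640755-34640843 on the plus strand) holds the IRF repeat at 2 places and Tcirg1 (chr19:3905390-3905459 on the minus strand) at 1, both on the opposite strand. Cd33 (chr7:43533290-43533359 on the minus strand) holds the reverse arrangement, and Wfdc17 (chr11:83703908-83703984 on the plus strand) 2 overlapping matches of it. Mgst2, Ifit1, Tcirg1 and Cd33 were called higher and the other genes shown lower. The naming rule chose 193 genes that have a promoter in the table, and 17 were counted with at least 1 of the 3 motifs. These were 7 of 100 with a positive change and 10 of 93 with a negative one. Holders on 1 chromosome were left out of these counts, while its genes stayed in the 193, 100 and 93. The share of all genes tested with at least 1 of the 3 was not counted. These counts therefore have no background beside them and are a description alone.

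Sugar metabolism differed between isozymes. Of the glycolysis genes, 7 were called higher (25.9%) and 4 lower (14.8%) of 27 tested, and the list's median change of 0.03 changed sign with the scaling. Hk3, a hexokinase of myeloid cells, read 5.27 and 5.2 on the wild-type arrays and 6.33 and 6.21 on the arrays labelled IRF8KO, a rise of 1.04 ± 0.09, adjusted p = 0.000134. Hk1, the widely expressed hexokinase, read 5.48 and 5.41 on the wild-type arrays and 4.6 and 4.6 on the arrays labelled IRF8KO, a change of -0.85 ± 0.06, adjusted p = 3.25e-05. The 2 hexokinases thus moved in opposite directions. Aldoc, which encodes the aldolase of brain, fell from -0.02 and -0.09 to -0.73 and -0.83 (-0.72 ± 0.07). Of the pentose phosphate and glycogen genes, 13 were called higher (48.1%) and 1 lower (3.7%) of 27 tested, with a median of 0.27 beside 0.04 for all genes. Pygl, the glycogen phosphorylase of liver and neutrophils, had the largest rise among them, from 5.12 and 5.04 to 5.85 and 5.82 (0.75 ± 0.05, adjusted p = 2.68e-05). None of the 14 calls on this list reached 2-fold, 5 were kept whichever array was left out, and 1, Pygl, was kept under every scaling tried.

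The number of mitochondrial genes called depended on the scaling. Of the respiratory chain and ATP synthase genes, 5 were called higher (6.33%) and 5 lower (6.33%) of 79 tested, and of the pyruvate and citric acid cycle genes, 4 were called higher (11.1%) and 2 lower (5.56%) of 36 tested, that is 12.7% and 16.7% called beside 26.4% of all genes tested. The respiratory chain counts were 3 higher and 23 lower after quantile normalization, 3 higher and 22 lower in the authors' table, 4 higher and 13 lower with the percentile over detected probes, and 2 higher and 0 lower with array medians. Whether these shares differ from the background was not tested, here or for any list below. Cox7a2l, a factor for respiratory chain supercomplexes, rose from 6.58 and 6.51 to 7.11 and 7.05 (0.54 ± 0.05, adjusted p = 0.000212). Of the mitochondrial carriers, 3 were called higher (6.67%) and 5 lower (11.1%) of 45 tested. Slc25a12, the aspartate-glutamate carrier, fell from 4.22 and 4.21 to 3.36 and 3.33 (-0.87 ± 0.05, adjusted p = 1.73e-05), and Slc25a29, a carrier of basic amino acids, rose from -0.84 and -1.04 to 0.09 and 0.14 (1.06 ± 0.12, adjusted p = 0.000601).

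Of the sterol genes, 9 were called higher (20%) and 10 lower (22.2%) of 45 tested, and of the fatty acid and triglyceride genes, 16 were called higher (19.5%) and 11 lower (13.4%) of 82 tested, the latter near the background. The 2 enzymes that esterify cholesterol for storage went opposite ways. Soat1 read -0.87 and -0.86 on the wild-type arrays and 0.06 and -0.13 on the arrays labelled IRF8KO, a rise of 0.83 ± 0.09, adjusted p = 0.000468. Soat2 read 0.42 and 0.54 on the wild-type arrays and -1.64 and -1.51 on the arrays labelled IRF8KO, a change of -2.06 ± 0.15, adjusted p = 4.28e-05. Vldlr, the receptor for very low density lipoprotein, fell from -0.09 and -0.18 to -2.47 and -2.35 (-2.27 ± 0.23, adjusted p = 0.000307). Triglyceride synthesis and breakdown each had a gene that rose, Dgat2, which adds the last acyl chain, and Pnpla2, the lipase that begins their removal. Dgat2 rose from 1.29 and 1.48 to 2.81 and 2.72 (1.38 ± 0.13, adjusted p = 0.000184) and Pnpla2 from 4.12 and 4.1 to 4.8 and 4.8 (0.69 ± 0.05, adjusted p = 6.05e-05). Acss2, which makes acetyl-CoA from acetate, fell from 1.39 and 1.24 to -0.02 and -0.10 (-1.37 ± 0.17, adjusted p = 0.0007), and Elovl7, a fatty acid elongase, from -0.27 and -0.03 to -1.59 and -1.34 (-1.32 ± 0.12, adjusted p = 0.000197). Osbpl3, a sterol-binding protein, rose by 0.98 ± 0.08.

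Sphingolipid genes had some of the largest falls. Of these, 12 were called higher (29.3%) and 9 lower (22%) of 41 tested, 51.2% in all beside the background of 26.4%, and 12 calls were kept whichever array was left out. Sphk1, the kinase that makes sphingosine 1-phosphate and whose window is shown above, read 2.01 and 1.87 on the wild-type arrays and -3.11 and -3.25 on the arrays labelled IRF8KO, a change of -5.12 ± 0.16, adjusted p = 7.9e-07. S1pr1, a receptor for that lipid, read -0.80 and -0.93 on the wild-type arrays and -3.22 and -3.03 on the arrays labelled IRF8KO, a change of -2.26 ± 0.22, adjusted p = 0.000239. Spns2, its exporter, read 4.63 and 4.65 on the wild-type arrays and 3.68 and 3.6 on the arrays labelled IRF8KO, a change of -1.0 ± 0.09, adjusted p = 0.000162. Kinase, exporter and receptor were therefore all lower, while the receptor S1pr3 rose by 0.81 ± 0.08. In glycosphingolipid synthesis, St3gal5, which makes the ganglioside GM3, fell from 0.16 and 0.23 to -2.21 and -2.21 (-2.41 ± 0.06, adjusted p = 4.63e-07), and Ugcg, which adds the first glucose to ceramide, fell by 0.95 ± 0.17. Smpdl3a, a phosphodiesterase related to acid sphingomyelinase, rose from 4.0 and 4.0 to 5.52 and 5.44 (1.48 ± 0.10, adjusted p = 3.02e-05).

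Leukotriene and prostaglandin genes moved in both directions. Of the eicosanoid genes, 10 were called higher (26.3%) and 7 lower (18.4%) of 38 tested. Alox5, the 5-lipoxygenase that opens leukotriene synthesis, read 2.65 and 2.66 on the wild-type arrays and 1.32 and 1.27 on the arrays labelled IRF8KO, a change of -1.36 ± 0.22, adjusted p = 0.00328. Cysltr2, a receptor for cysteinyl leukotrienes, fell from -2.64 and -2.45 to -3.9 and -3.93 (-1.37 ± 0.26, adjusted p = 0.00632). Its readings on the arrays labelled IRF8KO lie near background, so the size of that fall is uncertain. Ptger2, a receptor for prostaglandin E2, rose from -1.49 and -1.52 to 0.19 and 0.05 (1.62 ± 0.28, adjusted p = 0.00451), as did Ptgr1, which inactivates prostaglandins and leukotrienes, by 1.12 ± 0.08. Ptgs1, a cyclooxygenase, and Ltc4s, which makes leukotriene C4, did not pass the test, with changes of 0.07 ± 0.11 and -0.03 ± 0.12. Alox5 and Cysltr2 are known from mast cells and basophils, whose marker sums, given above, were lower too. Alox5 also averaged 7.7 in wild-type neutrophils and 2.66 in wild-type GMP, while the mature neutrophil marker sums above were higher. The part of any of these cells was not tested.

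Haem and iron genes, 7 higher and 10 lower of 42 tested, moved in both directions along the pathway. Alas1, the widely expressed enzyme of the opening step, read 7.1 and 7.07 on the wild-type arrays and 7.92 and 7.93 on the arrays labelled IRF8KO, a rise of 0.84 ± 0.07, adjusted p = 9.47e-05. Alad, the enzyme of the next step, read 2.78 and 2.78 on the wild-type arrays and 1.87 and 1.79 on the arrays labelled IRF8KO, a change of -0.95 ± 0.13, adjusted p = 0.00117. Tspo2, a relative of the translocator protein found in erythroid cells, fell from 2.53 and 2.53 to -0.55 and -0.44 (-3.03 ± 0.16, adjusted p = 1.11e-05). Ppox and Fech, enzymes of the closing steps, did not pass the test, with changes of 0.17 ± 0.07 and -0.10 ± 0.08. Mt2, a metallothionein that binds zinc and copper, fell from 2.42 and 2.39 to -0.12 and -0.10 (-2.51 ± 0.07, adjusted p = 4.63e-07). The erythroid marker sums above were lower as well, and their part in these falls was not tested.

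Of the nucleotide, serine and folate genes, 12 were called higher (17.1%) and 12 lower (17.1%) of 70 tested, and of the amino acid and polyamine genes, 13 were called higher (23.6%) and 10 lower (18.2%) of 55 tested. Xdh, xanthine dehydrogenase, rose from -0.67 and -0.61 to 0.78 and 0.86 (1.46 ± 0.11, adjusted p = 4.86e-05), and Adssl1, an enzyme of purine synthesis, by 0.90 ± 0.07. Mthfd2, a mitochondrial enzyme of folate metabolism, fell from 0.82 and 0.79 to 0.09 and 0.10 (-0.71 ± 0.12, adjusted p = 0.00446). Asns, which makes asparagine, read 2.91 and 2.81 on the wild-type arrays and 1.54 and 1.55 on the arrays labelled IRF8KO, a change of -1.31 ± 0.11, adjusted p = 9.58e-05. Asns and Mthfd2, both known targets of the amino acid stress factor ATF4, were lower on both arrays labelled IRF8KO. Kmo, which hydroxylates kynurenine, rose from -0.34 and -0.35 to 1.0 and 0.90 (1.3 ± 0.07, adjusted p = 1.23e-05), and Sat1, which acetylates polyamines, by 1.09 ± 0.07.

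Of the glutathione, thioredoxin and peroxide genes, 12 were called higher (20%) and 10 lower (16.7%) of 60 tested. The 3 microsomal glutathione transferases all rose. Mgst1 read 2.67 and 2.75 on the wild-type arrays and 4.65 and 4.57 on the arrays labelled IRF8KO, a rise of 1.9 ± 0.07, adjusted p = 1.85e-06. Mgst2, whose window is shown above, read 3.33 and 3.31 on the wild-type arrays and 4.78 and 4.8 on the arrays labelled IRF8KO, a rise of 1.47 ± 0.07, adjusted p = 8.36e-06, and Mgst3 rose by 0.72 ± 0.07. Among cytosolic transferases, Gstt1 fell from -1.07 and -1.02 to -2.22 and -2.83 (-1.48 ± 0.25, adjusted p = 0.00367) and Gstm5 by 0.84 ± 0.14, the latter a member of a family of near-identical genes whose probes may not tell them apart. Nqo1, a quinone reductase, was not well above background on either array labelled IRF8KO and was at least 4.35-fold lower there. Folds given as at least set the brighter group's mean against the higher of each dim array's lowest level above background and the probe's own level. For Slc38a5 and Cd33, below, the probe's own level was the higher on both dim arrays. Their folds are therefore the measured ones, from readings not well above background, and are not bounds. For Ednra, Tmem178, Sdc1, Abca9, Ifit1 and Zap70, below, the probe's own level was the higher on wild-type replicate 2. Their folds given as at least rest in part on that reading and are not strict bounds.

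**Figure D2:**
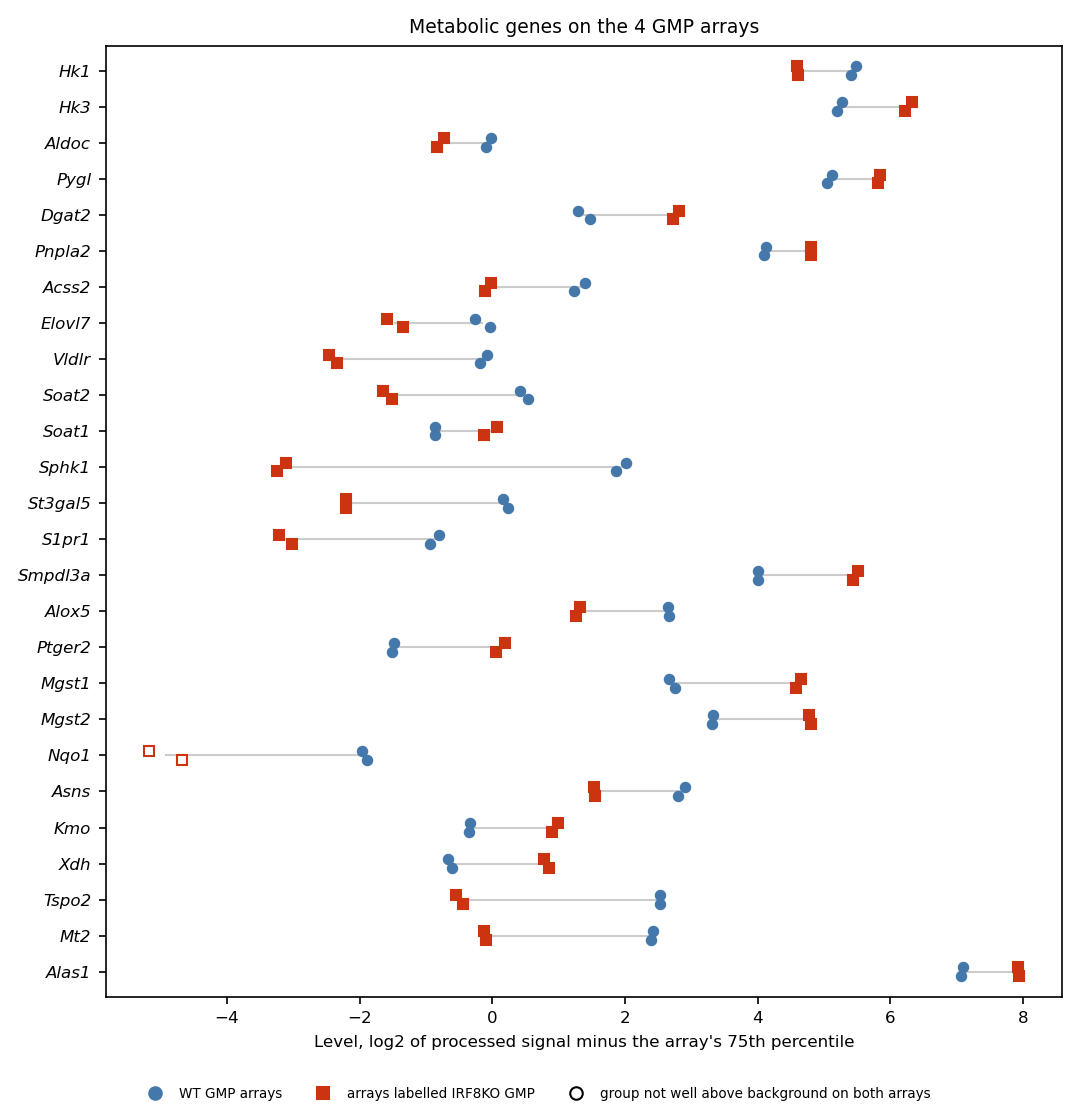
Levels of metabolic genes on the 4 arrays, on a log2 axis, with circles for wild-type arrays, squares for arrays labelled IRF8KO, and open symbols where a group was not well above background on both arrays. Sphk1, St3gal5, S1pr1, Soat2 and Tspo2 sit lower and Mgst1, Mgst2 and Smpdl3a higher on the arrays labelled IRF8KO.

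Genes of the lysosome held more rises than falls. Of these, 27 were called higher (36%) and 6 lower (8%) of 75 tested, with a median of 0.19 and 20 calls kept whichever array was left out. With array medians the counts were 14 higher and 6 lower. The rises were small, with 2 at least 2-fold. Ctsf, a cathepsin, rose from -0.47 and -0.41 to 1.19 and 1.14 (1.61 ± 0.20, adjusted p = 0.000948), and Igf2r, the receptor that sorts hydrolases to the lysosome, from -2.5 and -2.37 to -1.13 and -1.02 (1.36 ± 0.09, adjusted p = 3.26e-05). Plbd1, a phospholipase B-like protein, went the other way, from -0.55 and -0.72 to -2.71 and -2.82 (-2.13 ± 0.10, adjusted p = 6.61e-06), as did the aspartic protease Ctse (-1.27 ± 0.06). Of the subunits of the vacuolar proton pump, which acidifies the lysosome, 7 of 18 tested were called higher, though 2 calls were kept whichever array was left out. Tcirg1, a membrane subunit of the pump, rose from 3.59 and 3.59 to 4.19 and 4.13 (0.57 ± 0.06, adjusted p = 0.000251).

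Of the Rab GTPases and regulators, 25 were called higher (22.9%) and 7 lower (6.42%) of 109 tested. Rab27b, which docks secretory granules, read 1.44 and 1.33 on the wild-type arrays and -0.76 and -0.82 on the arrays labelled IRF8KO, a change of -2.18 ± 0.14, adjusted p = 3.12e-05. Rab19, whose window is shown above, fell from -0.04 and -0.02 to -2.0 and -1.97 (-1.95 ± 0.07, adjusted p = 2.22e-06), and Rab34, which acts at the Golgi and in cilia, rose from -0.69 and -0.72 to 0.94 and 0.93 (1.64 ± 0.15, adjusted p = 0.000153). Rab40b was not well above background on either array labelled IRF8KO and was at least 2.66-fold lower. Of the SNARE and exocytosis genes, 14 were called higher (17.3%) and 12 lower (14.8%) of 81 tested, against 16% and 10.4% of all genes. Stx3, a syntaxin, fell by 1.54 ± 0.14, while Lyst, the gene altered in Chediak-Higashi syndrome, and Sytl1 rose by 1.16 ± 0.19 and 0.96 ± 0.07. Of the genes of the endoplasmic reticulum, export and glycosylation, 37 were called higher (24.5%) and 14 lower (9.27%) of 151 tested. The glycosyltransferase Gcnt2 fell from 0.80 and 0.74 to -0.52 and -0.40 (-1.24 ± 0.10, adjusted p = 7.2e-05), and B3gnt8 rose by 0.90 ± 0.11.

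Among G protein-coupled receptors, 18 were called higher (22.8%) and 9 lower (11.4%) of 79 tested. Ednra, a receptor for endothelin, read -3.47 and -3.52 on the wild-type arrays and 0.90 and 0.90 on the arrays labelled IRF8KO. It was not well above background on either wild-type array and was at least 19.9-fold higher on the arrays labelled IRF8KO. Gpr141, an orphan receptor, rose from -2.18 and -2.67 to -0.16 and -0.39 (2.15 ± 0.15, adjusted p = 3.54e-05). F2r, a thrombin receptor, fell from 3.8 and 3.69 to 2.0 and 1.89 (-1.8 ± 0.23, adjusted p = 0.001), and P2ry1, an ADP receptor of platelets, from 1.64 and 1.71 to 0.57 and 0.40 (-1.19 ± 0.14, adjusted p = 0.000523). P2ry1 moved in the same direction as the megakaryocyte marker sums given above, whose part in it was not tested. Of the G protein and cyclic AMP genes, 16 were called higher (18.6%) and 14 lower (16.3%) of 86 tested. The G protein subunits Gna14 and Gnb4 fell from -0.67 and -0.62 to -3.29 and -3.39 (-2.69 ± 0.34) and from 0.79 and 0.70 to -1.81 and -1.84 (-2.57 ± 0.12). Pde2a, a phosphodiesterase that breaks down cyclic nucleotides, rose from 3.78 and 3.78 to 5.05 and 5.1 (1.3 ± 0.07, adjusted p = 1.46e-05).

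Of the calcium, phospholipase C and protein kinase C genes, 15 were called higher (16.1%) and 13 lower (14%) of 93 tested, near the background of 16% and 10.4%. Prkcb, protein kinase C beta, read 1.12 and 1.15 on the wild-type arrays and 2.48 and 2.45 on the arrays labelled IRF8KO, a rise of 1.33 ± 0.06, adjusted p = 3.75e-06. Prkca, protein kinase C alpha, read 0.89 and 0.93 on the wild-type arrays and -0.81 and -0.67 on the arrays labelled IRF8KO, a change of -1.65 ± 0.26, adjusted p = 0.00283. The 2 kinases, which share activators, moved in opposite directions. Tmem178, a membrane protein that limits calcium release in osteoclast precursors, was not well above background on either wild-type array and was at least 45.3-fold higher. Trpc6, a cation channel, fell from -0.45 and -0.41 to -2.92 and -2.47 (-2.27 ± 0.26, adjusted p = 0.000557).

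Of the Ras and MAP kinase genes, 33 were called higher (31.4%) and 11 lower (10.5%) of 105 tested, beside 16% and 10.4% of all genes. Mapk13, the delta isoform of p38, rose from -0.92 and -0.92 to 0.42 and 0.45 (1.35 ± 0.12, adjusted p = 0.000166). The phosphatases Dusp16 and Dusp3 fell from -0.22 and -0.22 to -1.6 and -1.92 (-1.54 ± 0.11, adjusted p = 4.55e-05) and from 0.98 and 1.03 to -0.29 and -0.47 (-1.39 ± 0.24, adjusted p = 0.0044). Gab3, an adaptor protein, gave 1.5 ± 0.09 on its brightest probe but -0.03 on its other probe above background, so its direction rests on the probe. Of the phosphoinositide 3-kinase, AKT and mTOR genes, 14 were called higher (20.9%) and 10 lower (14.9%) of 67 tested, with rises and falls in about the ratio seen over all genes. Trib2, a pseudokinase that directs the factor C/EBP alpha to degradation, read 0.89 and 0.84 on the wild-type arrays and -3.09 and -3.23 on the arrays labelled IRF8KO, a change of -4.02 ± 0.21, adjusted p = 9.64e-06. Inppl1, the phosphatase SHIP2, whose window is shown above, fell from -0.61 and -0.42 to -2.32 and -2.26 (-1.77 ± 0.12, adjusted p = 3.06e-05), while Inpp5j, another inositol phosphatase, rose by 1.19 ± 0.15.

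Of the Src and Syk family kinases, adaptors and phosphatases, 29 were called higher (34.5%) and 10 lower (11.9%) of 84 tested, beside 16% and 10.4% of all genes. Tyrobp, the adaptor DAP12, read 5.15 and 5.16 on the wild-type arrays and 6.68 and 6.64 on the arrays labelled IRF8KO, a rise of 1.5 ± 0.05, adjusted p = 1.5e-06. Cd300lb, a receptor that pairs with DAP12, rose from -0.62 and -0.54 to 1.38 and 1.48 (2.01 ± 0.11, adjusted p = 1.08e-05). Cd33, an inhibitory lectin, was not well above background on either wild-type array and measured 5.44-fold higher on the arrays labelled IRF8KO. Zap70, a kinase of T cells, was likewise not well above background on the wild-type arrays and was at least 1.43-fold higher, a call that was lost whichever of the 4 arrays was left out. Lat, the adaptor of the T cell and Fc epsilon receptors, fell from 1.12 and 1.13 to -0.71 and -0.58 (-1.77 ± 0.15, adjusted p = 0.000121). Fyn fell by 1.4 ± 0.11 and Clnk, a mast cell adaptor, by 2.35 ± 0.26. Syk itself did not pass the test (-0.16 ± 0.06, adjusted p = 0.104).

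Of the TGF-beta, BMP and activin genes, 10 were called higher (26.3%) and 5 lower (13.2%) of 38 tested. Tgfbr3, the co-receptor betaglycan, read 1.29 and 1.3 on the wild-type arrays and -1.38 and -1.38 on the arrays labelled IRF8KO, a change of -2.67 ± 0.30, adjusted p = 0.000474. Fstl3, which binds activin, rose by 0.68 ± 0.10 and Gdf3, a ligand of the family, fell by 0.90 ± 0.08 on its brightest probe, while its other probe above background gave -3.07. Of the Wnt and Notch genes, 11 were called higher (20.8%) and 2 lower (3.77%) of 53 tested. Notch1 read -0.77 and -0.86 on the wild-type arrays and 1.09 and 1.01 on the arrays labelled IRF8KO, a rise of 1.86 ± 0.14, adjusted p = 5.2e-05, and Rnf43, which removes Wnt receptors from the surface, rose from -0.95 and -0.95 to 0.38 and 0.34 (1.31 ± 0.19, adjusted p = 0.0017). Of the NF-kappaB and tumour necrosis factor genes, 22 were called higher (30.6%) and 5 lower (6.94%) of 72 tested, beside 16% and 10.4% of all genes. Card9 and Nod1, which carry signals from microbial products, rose from -1.12 and -1.1 to 0.12 and -0.12 (1.11 ± 0.21) and from 1.13 and 0.98 to 2.24 and 2.03 (1.08 ± 0.10). Tnfaip3, the NF-kappaB inhibitor A20, fell by 0.64 ± 0.09.

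Interferon-inducible genes rose and fell. Of these, 25 were called higher (29.8%) and 16 lower (19%) of 84 tested. Oas2, a sensor of double-stranded RNA, read -0.35 and -0.23 on the wild-type arrays and 1.96 and 1.91 on the arrays labelled IRF8KO, a rise of 2.22 ± 0.07, adjusted p = 7.9e-07. Ifit1, whose window is shown above, was not well above background on the wild-type arrays and was at least 1.79-fold higher. Rtp4 rose from 1.51 and 1.6 to 2.97 and 2.9 (1.38 ± 0.05, adjusted p = 2.73e-06). Usp18, which removes ISG15 and dampens interferon signalling, read -0.46 and -0.54 on the wild-type arrays and -1.62 and -1.62 on the arrays labelled IRF8KO, a change of -1.12 ± 0.08, adjusted p = 3.66e-05, and Ifitm1 fell from 5.41 and 5.44 to 4.24 and 4.12 (-1.25 ± 0.08, adjusted p = 3.26e-05). Oas and Ifitm genes have close paralogs, so a probe may read more than 1 of them. Irf7 did not pass the test (-0.03 ± 0.15).

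**Figure D3:**
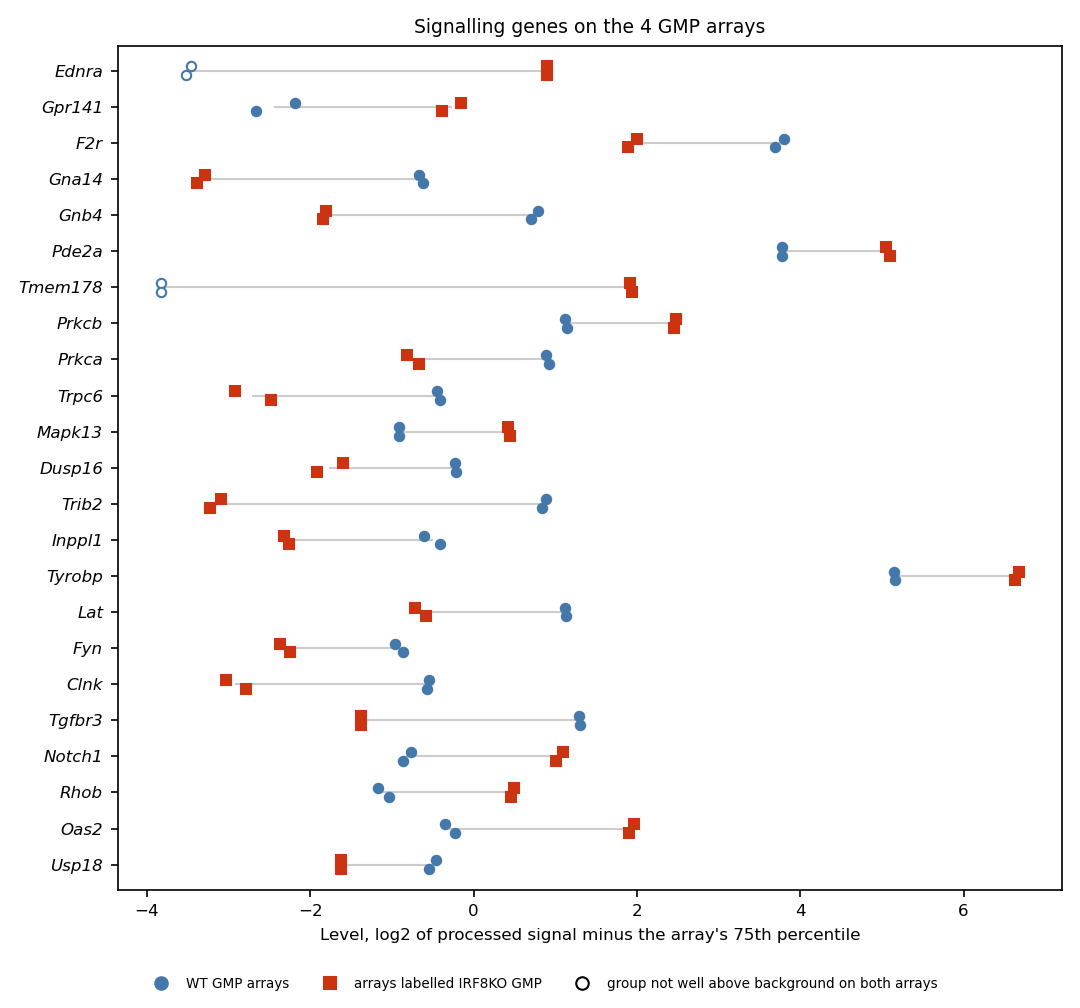
Levels of signalling genes on the 4 arrays, on a log2 axis, with the symbols of the plot of metabolic genes. Ednra and Tmem178 are open circles on the wild-type side and sit higher on the arrays labelled IRF8KO. Trib2 and Gna14 sit lower on the arrays labelled IRF8KO, and Prkcb and Prkca move in opposite directions.

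Of the actin and myosin genes, 14 were called higher (13%) and 19 lower (17.6%) of 108 tested, with 10 at least 2-fold lower and 2 at least 2-fold higher, where 2.76% and 2.49% of all genes were that much lower and higher. Myo1d, a membrane-linked myosin, read 1.11 and 1.04 on the wild-type arrays and -3.15 and -2.84 on the arrays labelled IRF8KO, a change of -4.07 ± 0.45, adjusted p = 0.000442. Its relative Myo1e was not well above background on either array labelled IRF8KO and was at least 3.58-fold lower. Lmna, which encodes lamin A and C of the nuclear envelope, fell from 0.09 and 0.00 to -2.05 and -2.1 (-2.12 ± 0.20, adjusted p = 0.000179). Cnn3, a calponin, and Evl, a promoter of actin polymerisation, rose from 1.92 and 1.92 to 3.97 and 3.87 (2.0 ± 0.13, adjusted p = 3.01e-05) and from 2.47 and 2.4 to 4.07 and 3.96 (1.58 ± 0.06, adjusted p = 2.64e-06). The small GTPases Rhob and Rhou rose by 1.58 ± 0.08 and 1.55 ± 0.29, while Rhoj and the exchange factor Arhgef12 fell by 1.72 ± 0.32 and 1.89 ± 0.28.

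Selectins and immunoglobulin-type adhesion molecules held more falls than rises. Of these, 11 were called higher (20%) and 19 lower (34.5%) of 55 tested, and 11 of these falls were at least 2-fold. Of the tested members, 13 are also on a blood cell marker list. Icam4, an adhesion molecule of red cells, read 2.15 and 2.13 on the wild-type arrays and 0.16 and 0.18 on the arrays labelled IRF8KO, a change of -1.97 ± 0.15, adjusted p = 7.29e-05. Robo3, a Slit receptor, fell from 1.21 and 1.26 to -0.58 and -0.55 (-1.8 ± 0.11, adjusted p = 2.54e-05). Vsir, the inhibitory receptor VISTA, rose from 1.56 and 1.61 to 2.96 and 2.95 (1.37 ± 0.09, adjusted p = 3.68e-05), and Ncam1 by 0.93 ± 0.17. Of the integrins and partners, 7 were called higher (22.6%) and 6 lower (19.4%) of 31 tested, and the beta subunits split. Itgb5 rose from 1.41 and 1.36 to 3.21 and 3.18 (1.81 ± 0.09, adjusted p = 9.03e-06), and Itgb7, which pairs with alpha 4 for homing to gut, fell from 2.83 and 2.71 to 1.68 and 1.71 (-1.08 ± 0.07, adjusted p = 3.73e-05). Tetraspanins and related proteins, of which 13 were called higher (28.9%) and 7 lower (15.6%) of 45 tested, held Tspan33, which fell from 1.32 and 1.43 to -1.47 and -1.51 (-2.87 ± 0.09, adjusted p = 8.2e-07), and Tspan2, which rose by 1.11 ± 0.08. Of the cadherins, semaphorins, plexins and ephrins, 10 were called higher (25.6%) and 5 lower (12.8%) of 39 tested, and Cdh1, which encodes E-cadherin, fell from -0.41 and -0.33 to -1.86 and -1.86 (-1.49 ± 0.19, adjusted p = 0.000915). Plxnc1, a semaphorin receptor whose window is shown above, fell by 1.24 ± 0.05.

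Of the matrix and metalloprotease genes, 15 were called higher (22.4%) and 10 lower (14.9%) of 67 tested. Mmp2, which encodes a gelatinase secreted as a zymogen, read -2.06 and -2.16 on the wild-type arrays and 0.55 and 0.51 on the arrays labelled IRF8KO, a rise of 2.64 ± 0.15, adjusted p = 1.33e-05. Mmp14, which encodes the membrane protease that activates that zymogen and whose window is shown above, was not well above background on either array labelled IRF8KO and was at least 4.48-fold lower. Protease and activator therefore went opposite ways, and Timp3, an inhibitor of such proteases, fell from -0.51 and -0.38 to -1.97 and -1.96 (-1.52 ± 0.15, adjusted p = 0.000244). Among heparan sulphate proteoglycans, Sdc1, syndecan 1, was not well above background on either wild-type array and was at least 10.4-fold higher, and Gpc1, a glypican, rose from 5.21 and 5.01 to 6.5 and 6.56 (1.42 ± 0.07, adjusted p = 7.15e-06). Lgals3, a galectin, fell by 1.32 ± 0.07. Of the serpins, cystatins and other inhibitors, 4 were called higher (12.9%) and 2 lower (6.45%) of 31 tested, 19.4% called. Wfdc17, whose window is shown above, was at least 8.89-fold lower and not above background on the arrays labelled IRF8KO, while Slpi, the leukocyte protease inhibitor, rose by 0.79 ± 0.07.

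Transporters of amino acids held a large change in each direction. Of these, 8 were called higher (25.8%) and 5 lower (16.1%) of 31 tested. Slc36a2, a proton-coupled carrier of glycine and proline, read -1.9 and -1.71 on the wild-type arrays and 1.62 and 1.63 on the arrays labelled IRF8KO, a rise of 3.43 ± 0.15, adjusted p = 4.66e-06. Slc38a5, a carrier of glutamine, was not well above background on either array labelled IRF8KO and measured 35.4-fold lower there. Slc7a8, a carrier of neutral amino acids, fell from 0.90 and 0.87 to -0.34 and -0.27 (-1.19 ± 0.14, adjusted p = 0.000631). Of the sugar, monocarboxylate and organic ion transporters, 15 were called higher (18.1%) and 9 lower (10.8%) of 83 tested. Slc22a3, a carrier of organic cations such as histamine, fell from -0.11 and -0.11 to -2.92 and -2.45 (-2.57 ± 0.21, adjusted p = 8.83e-05), and the glucose transporter Slc2a3 fell from 1.93 and 1.92 to 1.09 and 0.97 (-0.90 ± 0.07, adjusted p = 8.33e-05). Slc13a3, a carrier of dicarboxylates, was at least 4.24-fold higher and not above background on the wild-type arrays. Of the nucleoside, vitamin, choline and amine carriers, 5 were called higher (31.2%) and 3 lower (18.8%) of 16 tested. Slc14a1, a urea channel of red cells, and Slc18a2, which loads monoamines into vesicles, fell from 3.38 and 3.31 to 1.16 and 1.15 (-2.19 ± 0.09, adjusted p = 2.89e-06) and from 2.72 and 2.68 to 0.87 and 0.95 (-1.79 ± 0.23, adjusted p = 0.000936).

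Of the sodium, proton, chloride and bicarbonate transporters, 11 were called higher (26.8%) and 9 lower (22%) of 41 tested, with 6 at least 2-fold lower and 1 at least 2-fold higher, where 2.76% and 2.49% of all genes were that much lower and higher. Atp1b2, a beta subunit of the sodium-potassium pump, read 1.93 and 1.95 on the wild-type arrays and -2.36 and -2.5 on the arrays labelled IRF8KO, a change of -4.37 ± 0.15, adjusted p = 1.07e-06. Hvcn1, the proton channel that sustains the respiratory burst of phagocytes, read 3.4 and 3.45 on the wild-type arrays and 4.4 and 4.37 on the arrays labelled IRF8KO, a rise of 0.96 ± 0.06, adjusted p = 1.79e-05. Of the ion channels and aquaporins, 17 were called higher (19.8%) and 11 lower (12.8%) of 86 tested, and 10 were at least 2-fold lower and 6 at least 2-fold higher. Kcng1, a subunit of potassium channels, rose from -0.97 and -1.15 to 0.46 and 0.75 (1.66 ± 0.15, adjusted p = 0.000158). Clca3a1, of a cluster of near-identical genes that a probe may not tell apart, fell from -0.73 and -0.71 to -3.07 and -3.32 (-2.48 ± 0.25, adjusted p = 0.000252), and Aqp9, a channel for water and glycerol that was not above background on the arrays labelled IRF8KO, was at least 2.45-fold lower. Of the ABC transporters and flippases, 8 were called higher (17.4%) and 10 lower (21.7%) of 46 tested. Abca9 was not well above background on either wild-type array and was at least 21.4-fold higher, and Abcb4, which moves phosphatidylcholine across the membrane, fell from 3.01 and 2.93 to 0.70 and 0.62 (-2.31 ± 0.21, adjusted p = 0.00014). Of the metal and phosphate transporters, 7 were called higher (23.3%) and 2 lower (6.67%) of 30 tested. The zinc importer Slc39a4 rose by 0.98 ± 0.11, and Slc41a3 and the phosphate carrier Slc20a1 fell by 0.96 ± 0.07 and 0.66 ± 0.08.

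**Figure D4:**
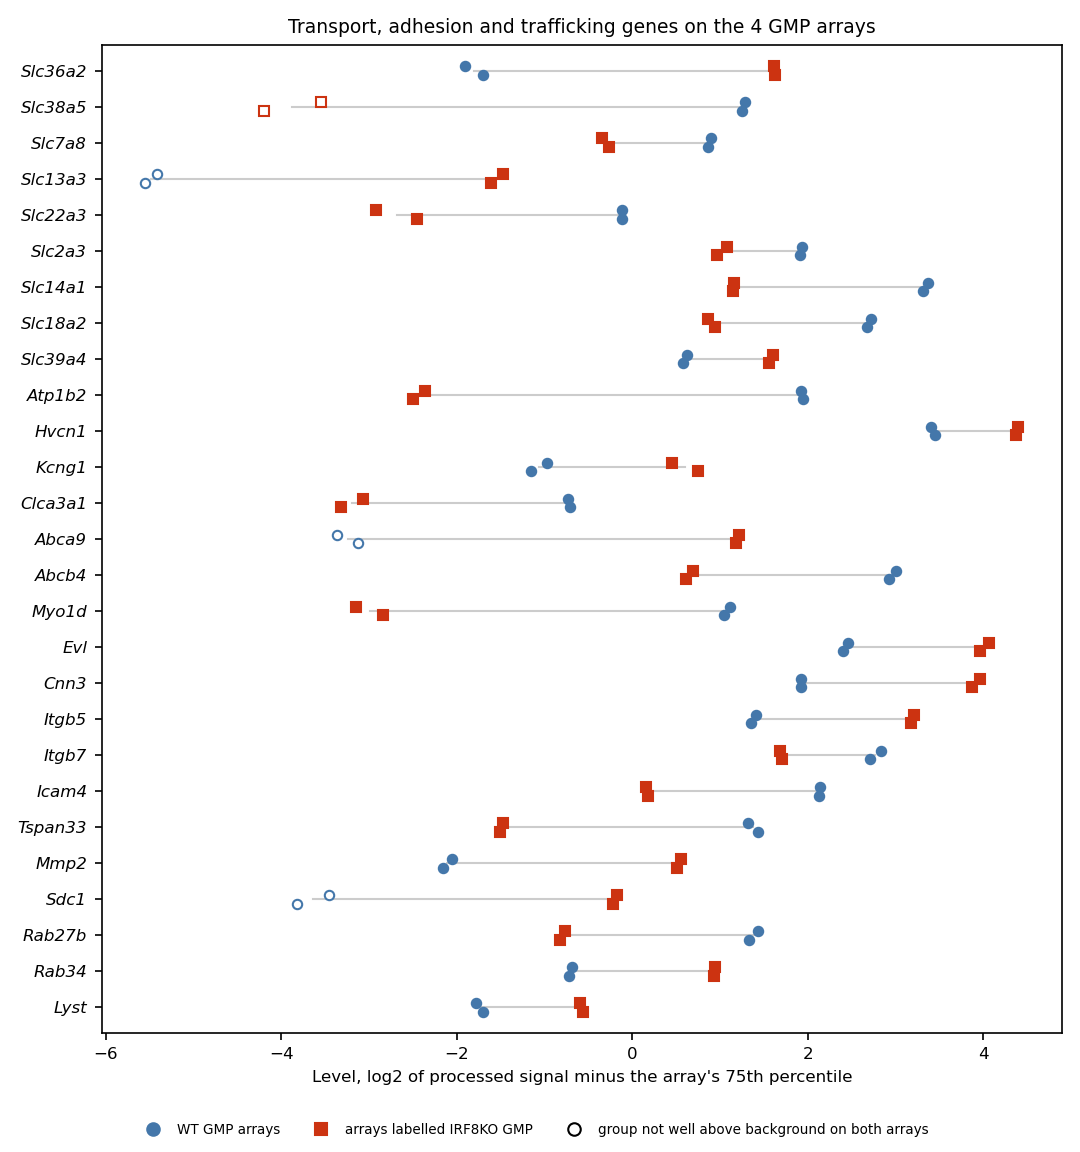
Levels of transport, adhesion and trafficking genes on the 4 arrays, on a log2 axis, with the symbols of the plot of metabolic genes. Slc36a2, Abca9, Mmp2 and Sdc1 sit higher on the arrays labelled IRF8KO, and Atp1b2, Myo1d and Slc38a5 lower.

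Genes on none of these lists that changed most included enzymes, receptors and scaffold proteins. Tctex1d1, a dynein light chain domain protein, rose from -0.71 and -0.81 to 2.92 and 2.89 (3.67 ± 0.36, adjusted p = 0.000251). Lrp1, an endocytic receptor of the LDL receptor family, read -0.34 and -0.39 on the wild-type arrays and 2.18 and 2.22 on the arrays labelled IRF8KO, a rise of 2.56 ± 0.08, adjusted p = 8.2e-07. C3, the central complement component, read 4.48 and 4.43 on the wild-type arrays and 6.69 and 6.65 on the arrays labelled IRF8KO, a rise of 2.21 ± 0.07, adjusted p = 7.9e-07. Pram1, an adaptor of the granulocyte lineage, rose by 2.23 ± 0.10, and Cracr2b, a regulator of calcium entry, by 2.17 ± 0.26. Gas7 rose by 2.2 ± 0.19 on its brightest probe, and its other probe above background gave 1.04. Among the falls, Ces2g, a carboxylesterase, fell from 0.92 and 0.88 to -3.02 and -3.08 (-3.95 ± 0.37, adjusted p = 0.000182). Kel, the Kell blood group peptidase, fell from 0.86 and 0.79 to -3.14 and -3.04 (-3.91 ± 0.15, adjusted p = 2.22e-06), and Aldh1a1, which makes retinoic acid, from 1.24 and 1.21 to -1.7 and -1.75 (-2.95 ± 0.07, adjusted p = 3.23e-07). Cd55, which protects cells from complement, fell by 2.81 ± 0.11 and thus moved against C3. Shank3, a scaffold protein, and Epdr1 fell by 3.09 ± 0.14 and 3.35 ± 0.16. Naip6 fell by 3.03 ± 0.07, with close paralogs that its probe may also read.

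The same genes were read on 2 arrays each of wild-type neutrophils, common dendritic cell progenitors (CDP), pre-cDC and CD8+ cDC, which served for description alone. Mgst1 averaged 2.71 in wild-type GMP, 4.61 in the GMP labelled IRF8KO and 7.46 in neutrophils, against 0.92 in CDP. Dgat2 averaged 1.39, 2.76 and 6.85 in the same order, and Pde2a 3.78, 5.08 and 8.84. In these genes the GMP labelled IRF8KO lay between wild-type GMP and neutrophils. Slc36a2 did not follow that order, with 1.62 in the GMP labelled IRF8KO against -1.8 in wild-type GMP, and neither neutrophil array read it well above background. The same held for Mmp2, which averaged 0.53 in the GMP labelled IRF8KO. Some genes that fell were higher in neutrophils than in wild-type GMP, and so moved away from the neutrophil level. St3gal5 averaged 0.20 in wild-type GMP, -2.21 in the GMP labelled IRF8KO and 7.44 in neutrophils. Myo1d averaged 1.08, -2.99 and 4.82 in the same order, and Plbd1 -0.64, -2.77 and 10.3. Kmo, higher in the GMP labelled IRF8KO, was higher still in CDP at 4.18 and pre-cDC at 5.21 and lower in neutrophils at -1.14. Atp1b2 averaged 1.94 in wild-type GMP, while no array of neutrophils, CDP, pre-cDC or CD8+ cDC read its probe well above background. Differences from these 4 populations were not tested here.

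**Figure D5:**
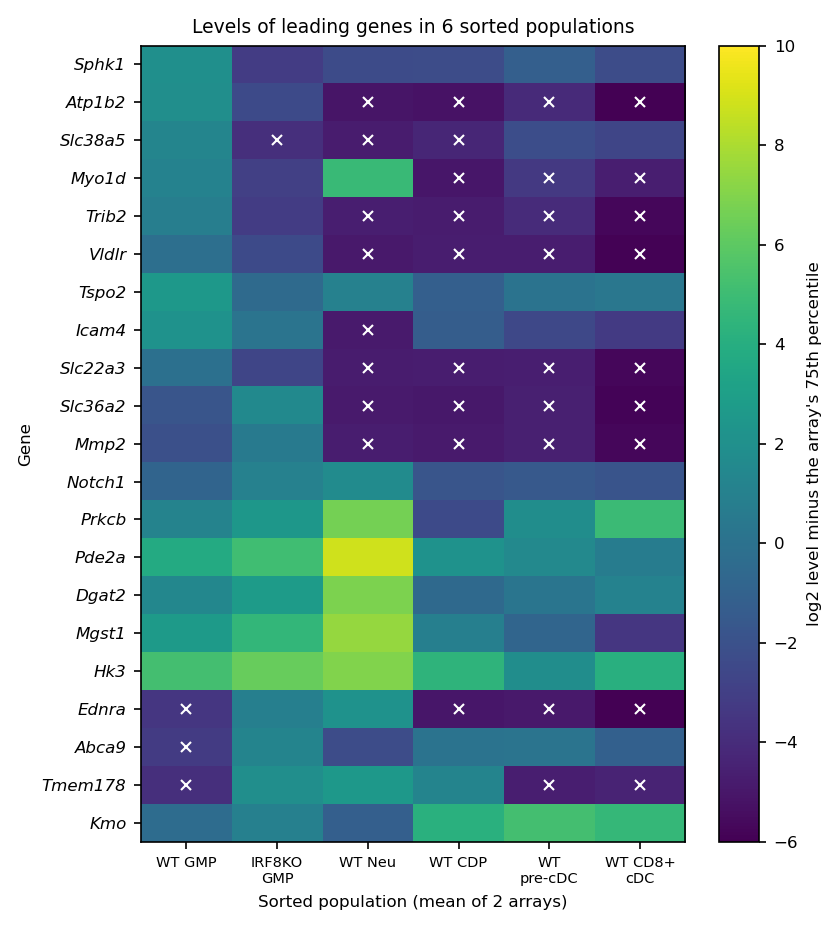
Mean levels of the genes on the vertical axis over the 2 arrays of each of 6 populations, as colours on a log2 scale, to be read along a row since genes have different probes, with crosses where no array of the population was well above background. Sphk1, Atp1b2 and Trib2 are highest in wild-type GMP, Mgst1, Pde2a and Dgat2 in neutrophils, and Slc36a2 and Mmp2 in the GMP labelled IRF8KO.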

How the data were processed

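Total RNA of sorted GMP was hybridised to single-colour arrays. The deposited files hold spot intensities from Agilent Feature Extraction 10.7.3.1, per the file headers, with background subtracted within an array and no normalization between them. The authors also deposited intensities of 39429 of the probes on a linear scale, used here as log2. The sources used here do not say how that table was made. Its columns share the same sorted values, and it followed the processed signals at a Spearman correlation of at least 0.992.

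Control spots and spots flagged as outliers were left out, spots of a probe were averaged as log2 signals, and the 75th percentile of the array was subtracted. A probe counted as well above background where a share of at least 0.5 of its spots did. Names came from RefSeq (GRCm38.p6), through which 26762 of 55681 probes had 1 symbol, giving 20284 genes, and 28919 had none. The brightest probe stood for a gene; of 243 called or named genes with several probes above background, 22 had probes of opposite sign. Among genes tested, 12 values on the GMP arrays are missing.

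limma 3.58.1 (lmFit, contrasts, eBayes, two-sided; R 4.3.3 with the package data.table, version 1.17.8) was fitted to the 12 arrays of the larger design in 6 groups, which share the spread of each gene (prior degrees of freedom 1.79, total 7.79), with Benjamini-Hochberg adjustment and calls at 0.05. The number of arrays and the signal over background limit the precision. The script was tested on simulated data. Figures used Python 3.11.15 and matplotlib 3.10.9.

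The members and lists were chosen with earlier results of these data known. Genes were named by a rule: Irf8; in each list the 2 called members with the largest rise and the 2 with the largest fall among those above background on all 4 arrays and on no marker list, and up to 2 as bounds; then the 10 largest rises and falls on no list. Alad, Cysltr2, Fech, Fyn, Hvcn1, Irf7, Ltc4s, Mgst3, Ppox, Ptgs1, S1pr1, S1pr3, Slc2a3, Spns2, Syk, Tyrobp and Ugcg were added after their values were seen. Some genes that the rule chose and 1 list are not reported here. Alternatives were normexp (offset 50, on the median signal in place of the mean signal first planned), quantile, median and detected-probe scaling, the authors' table, no filter, the 4 arrays alone, a replicate block, the mean of a gene's probes, and leaving out each array.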

Additional observations from a re-analysis of the deposited data

How the results depend on the processing

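No gene called in the comparison was called in the opposite direction under any alternative run. Calls numbered 3214 in the reported fit and 1655 with array medians (1095 higher, 560 lower), where the median of all genes moved to 0.11. Leaving out 1 array gave 1824 to 2024 calls, 1075 to 1274 higher and 723 to 757 lower; fewer samples enter those fits, and without the wild-type replicates there were 2024 and 1905, without those labelled IRF8KO 1824 and 1957. The other alternatives gave 2377 (no filter, 20284 genes tested) to 4540 calls (the 4 arrays alone). With the replicate block there were 2794 calls, 1705 higher and 1089 lower, of which 2760 were shared. The difference between replicates 1 and 2 correlated at 0.00984 between the groups, so no shared replicate effect was seen. Whether the arrays were paired by experiment cannot be told from that value. Genes changed at least 2-fold numbered 428 (normexp) to 791 (no filter), against 638. Higher genes were 60.5% of the calls, 50.3% with the percentile over detected probes, 66.2% with array medians, 53% in the authors' table and 51.8% after quantile normalization. List medians near 0 changed sign with the scaling for glycolysis, citric acid cycle, respiratory chain, mitochondrial carrier, sterol, fatty acid, eicosanoid, nucleotide, amino acid, glutathione, cyclic AMP, actin, protease inhibitor and sodium transporter lists. Of the 240 genes chosen by the naming rule, 1 changed sign: Dcc, at 1.36 on its brightest probe, was -0.013 (adjusted p = 0.967) with the mean of its probes; the cause was not tested. Under the alternatives, 3 to 35 of them lost the call. Genes near background have only bounds or folds from readings not well above background. The latter holds in whole for Slc38a5 and Cd33, and in part for Ednra, Tmem178, Sdc1, Abca9, Ifit1 and Zap70.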
